A study of Homo sapiens with 6 samples.

Results

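Regions of open chromatin that lay away from genes and were shared by clones of protease-depleted U937 cells were described here. Peak intervals of 6 libraries on chromosomes 1 to 22 and X were merged wherever they overlapped by 1 bp or more, which gave 32817 regions. A region was kept if at least 2 of the 3 ΔNSPs clones listed a peak in it, if it lay over 1000 bp from both ends of every protein-coding or lncRNA gene, and if its midpoint was outside all such genes. This left 939 regions, called shared intergenic regions below. They made up 11.2% of the 8380 intergenic regions found in any library, while 20.9% of merged regions of all positions were shared by at least 2 clones. The regions were chosen by the peak calls of the clones themselves, so their presence in clones and absence from control lines is a description and carries no test.

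U937 is an established human monocytic cell line. The 3 ΔNSPs lines were independent clones depleted at the same time of CTSG, ELANE and PRTN3, the neutrophil serine proteases cathepsin G, elastase and proteinase 3, and the 3 control lines carried control plasmids. Cells of both groups had been selected with geneticin, incubated with DNase, washed and frozen in medium with DMSO before ATAC-seq, which marks open DNA by where a transposase inserts adapters. The labels do not say how the depletion was checked, and these peak lists hold no expression values that could check it.

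Away from gene starts, accessible DNA often marks enhancers, which bind transcription factors and act on genes at a distance, and binding sites of insulator proteins. In myeloid cells, enhancers around the genes of lineage factors such as PU.1, the C/EBP proteins and RUNX proteins are known to carry much of the cell type's identity. Open chromatin outside protein-coding and lncRNA genes also includes genes of small RNAs: RNA polymerase II transcribes most spliceosomal snRNA genes and RNA polymerase III transcribes tRNA genes.

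The genome sequence of the shared regions was not used here, so the sequences shown are those of annotated elements next to them. The gene starts are shown because their genes were each the nearest protein-coding gene to 4 or more shared intergenic regions. Only starts at which at least 2 clones listed a peak are shown. UACA, CEBPB and RNF24 were also nearest to 4 or more, but their starts had a peak in at most 1 clone. Further starts of TLE3 and ETS2 had a peak in no clone. Each sequence is the 250 bases before the start in RefSeq, build GRCh38.p14, written 5′ to 3′ on the gene's strand. Capitals mark the bases that the peaks of every clone with a peak there had in common.
TLE3, chr15:70097918-70098167, minus strand: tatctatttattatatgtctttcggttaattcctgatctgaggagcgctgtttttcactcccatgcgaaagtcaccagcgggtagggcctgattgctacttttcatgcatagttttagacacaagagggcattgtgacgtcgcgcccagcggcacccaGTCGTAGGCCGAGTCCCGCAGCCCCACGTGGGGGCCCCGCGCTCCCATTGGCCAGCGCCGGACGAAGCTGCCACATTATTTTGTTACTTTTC
RPLP1, chr15:69452568-69452817, plus strand: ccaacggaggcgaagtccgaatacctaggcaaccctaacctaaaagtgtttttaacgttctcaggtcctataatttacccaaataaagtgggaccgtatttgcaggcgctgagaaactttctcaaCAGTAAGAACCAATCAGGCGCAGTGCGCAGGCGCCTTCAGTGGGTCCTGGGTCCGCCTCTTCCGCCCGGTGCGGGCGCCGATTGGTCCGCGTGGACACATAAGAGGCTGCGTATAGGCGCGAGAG
ETS2, chr21:38805679-38805928, plus strand: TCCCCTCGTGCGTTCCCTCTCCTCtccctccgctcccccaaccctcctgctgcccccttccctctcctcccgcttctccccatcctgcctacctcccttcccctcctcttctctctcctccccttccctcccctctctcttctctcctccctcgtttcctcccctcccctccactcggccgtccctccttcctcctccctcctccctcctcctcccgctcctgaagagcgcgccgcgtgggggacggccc
At the TLE3 start all 3 clones listed a peak, with folds over local background of 2.94, 4.14 and 2.57 in clones 1, 2 and 3. At the RPLP1 and ETS2 starts clones 1 and 2 listed one, with folds of 5.15 and 4.90 at RPLP1 and 3.43 and 5.27 at ETS2. No control line listed a peak at any of them. On either strand, the RPLP1 stretch held the GC box letters GGGCGG, which 42.7% of 34961 such stretches hold. The ETS2 stretch held GAGGAAG, the letters searched for ETS factors such as PU.1, which 11.3% hold, and the CTCF core letters AGGNGGC, which 31.6% hold. Both matches in the ETS2 stretch lay outside the 24 bases that the peaks of clones 1 and 2 had in common. The other motifs searched on both strands were TGANTCA for AP-1 (in 6.54% of stretches), TTGCGCA for C/EBP (1.62%), TGTGGTT for RUNX (3.65%), AGATAA for GATA factors (9.18%) and GCATGCG for NRF1 (3.38%). Matches of the GC box and the CTCF core letters can overlap. The TLE3 stretch held none of the 8 motifs, which says only that those letters are not in this window.

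miRNA genes are also shown because each lay beside a region that all 3 clones shared. MIR4425 lay 408 bp from a region whose nearest protein-coding gene was RUNX3, and MIR4710 lay 43 bp from one nearest to INF2. Their mature sequences from RefSeq have the seed, bases 2 to 8, in capitals, and the seeds differ.
hsa-miR-4425: uGUUGGGAuucagcaggaccau
hsa-miR-4710: gGGUGAGGgcaggugguu
Of the other miRNA genes, 3 lay within 2000 bp of a shared region and none lay inside one.

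The libraries differed widely in the length of their lists. On chromosomes 1 to 22 and X, clones 1, 2 and 3 listed 14262, 24977 and 2188 peaks, and control lines 1, 2 and 3 listed 11, 4 and 2. A list gives no value where no peak was called, and the read totals were not given, so a missing control peak is not a measured absence of signal. Gene-end peaks at 11 monocytic markers were listed for 3, 6 and 1 genes in clones 1, 2 and 3 and for 0 in each control line. LYZ, FCGR1A, SPI1 and CSF2RA had none in any library. Of 9 markers of other lineages, 1, 2 and 0 had one in the clones and 0 in the control lines. The share of all genes with a gene-end peak was not set beside these counts, so they do not mark cell identity.

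Clone 1 listed a peak in 873 of the 939 shared intergenic regions, clone 2 in 923 and clone 3 in 210. Each control line listed a peak in 1, the same region in all 3. Clones 1 and 2 alone shared 729 regions, which is 77.6%. Clones 2 and 3 alone shared 66, clones 1 and 3 alone shared 16, and all 3 clones shared 128. The share found in all 3 clones was 13.6% (95% interval 11.5 to 16.0, exact Clopper-Pearson, which covers counting error only), while it was 21.2% (19.9 to 22.5) of the 4021 shared regions at gene ends and 14.3% (12.8 to 16.0) of the 1914 within gene bodies. Over shared regions of all positions it was 18.2%. A region can be in all 3 clones only if clone 3, whose list was the shortest, holds it.

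**Figure D1:**
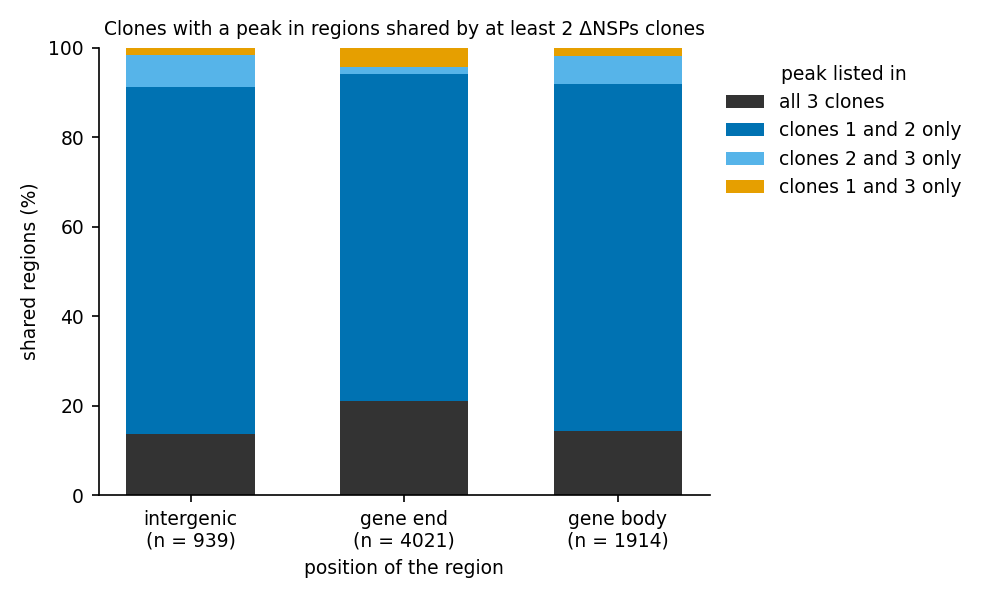
Share of shared regions (y axis, percent) by the clones that listed a peak, for intergenic, gene-end and gene-body regions (x axis, with the number of regions). Clones 1 and 2 alone hold 77.6% of the intergenic regions, and all 3 clones hold 13.6%, against 21.2% at gene ends.

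The peaks in these regions were of moderate height. The fold over background had a median of 3.35 in clone 1 (range 1.24 to 7.70), 4.12 in clone 2 (1.83 to 11.99) and 3.32 in clone 3 (1.87 to 7.87). The medians over all peaks of the same lists were 3.54, 4.16 and 3.35. The number of reads piled up at the summit, solved from the authors' fold and p, had a median of 27, 27 and 26 in clones 1, 2 and 3. Their local backgrounds had medians of 7.02, 5.52 and 7.01 reads, against 3.80, 2.17 and 1.98 reads in intergenic regions that the same clone alone listed. Shared intergenic regions therefore lay where more reads were counted around the peak, in each of the 3 clones, and the part of that local background in a region being shared was not tested. A −log10 q under 3, close to the authors' limit, was found for 23.3% of these peaks in clone 1, 13.2% in clone 2 and 35.7% in clone 3.

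Peaks of 2 clones had to fall in 1 merged interval for a region to be shared, which keeps their summits close and makes the distances a description. The summits of clones 1 and 2 were a median of 45 bp apart over 857 regions, those of clones 1 and 3 were 48.5 bp apart over 144, and those of clones 2 and 3 were 40 bp apart over 194. At gene ends the medians were 53, 54 and 63 bp. Peaks in regions of all 3 clones stood higher by −log10 q within the lists than those in regions of 2 clones: their median percentile of −log10 q was 74.8 against 48.7 in clone 1, 86.6 against 65.7 in clone 2 and 55.9 against 45.5 in clone 3. The median folds were 3.61 against 3.30 in clone 1 and 4.827 against 4.002 in clone 2, but went the other way in clone 3, at 3.11 against 3.82. The folds of a region ranked only loosely alike between clones, with Spearman coefficients of 0.358, 0.433 and 0.351 for the pairs 1 and 2, 1 and 3, and 2 and 3. These coefficients describe regions that share a library and a local background.

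With 3 clones, a difference in rank between shared intergenic peaks and shared peaks elsewhere could not pass a threshold of 0.05. Their median percentile of −log10 q within the list was 50.5, 68.2 and 54.6 in clones 1, 2 and 3, against 69.7, 71.5 and 55.9 at gene ends. The mean difference of −7.95 ± 9.84 percentile points (SD, n = 3 clones) had an exact two-sided sign-flip p of 0.25, the smallest that 3 clones allow, and was negative in 3 of 3 clones. Against gene bodies, at 54.3, 71.9 and 53.4, the mean difference was −2.14 ± 2.84 (SD, n = 3), with an exact p of 0.5. Peak widths had medians of 228, 138 and 170.5 bp in clones 1, 2 and 3, against 343, 145 and 186 bp at gene ends. That mean difference of −45.8 ± 60.1 bp (SD, n = 3) had an exact p of 0.25, and clone 1 made up most of it. Against gene bodies, at 230, 142 and 174 bp, it was −3.17 ± 1.04 bp (SD, n = 3; exact p of 0.25).

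Shared intergenic regions lay closer to protein-coding genes than intergenic regions of a single clone. The median distance was 13881 bp, with the middle of the distribution between 5764 and 43888 bp, against 50920 bp for the 7439 regions that 1 clone listed. Distances over 100 kb were found for 112 shared regions, 11.9%, against 37.6% of regions of 1 clone. Clone 2 supplied 5960 of the regions of 1 clone, so the same values were taken within each clone. In clone 1 the medians were 14131 bp in shared regions and 20213 bp in its own, in clone 2 they were 13881 and 59191 bp, and in clone 3 they were 14236.5 and 221650 bp. The direction was therefore the same in 3 of 3 clones, and the difference was smallest in clone 1. Of the 744 shared regions whose gene has a known strand, 391 lay on the 5′ side of the gene, 52.6% (exact Clopper-Pearson 95% interval 48.9 to 56.2), against 50.3% of regions of 1 clone.

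**Figure D2:**
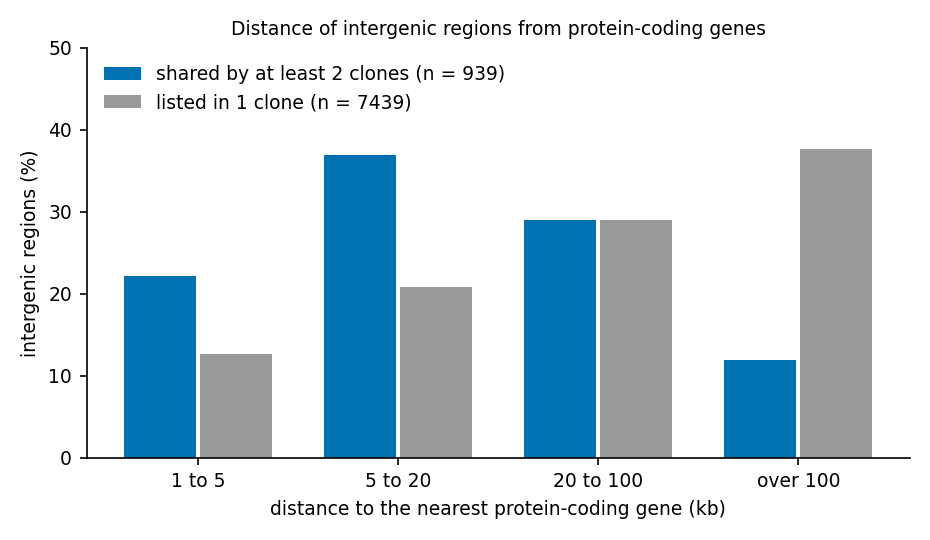
Share of intergenic regions (y axis, percent) by distance to the nearest protein-coding gene (x axis, kb), for the 939 regions shared by at least 2 clones and the 7439 listed in 1 clone. Shared regions are most often 5 to 20 kb away, at 37.0%, while regions of 1 clone are most often over 100 kb away, at 37.6%.

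The shared regions were spread over all chromosomes used, with 138 on chromosome 1, 77 on chromosome 2, 69 on chromosome 15 and 68 on chromosome 20. They made up 13.7% of all shared regions, but 20.2% of those on chromosome 20, 18.6% on chromosome 21 and 17.3% on chromosome 15. On chromosome 19, which is dense in genes, the share was 10.4%, and on chromosome 18 it was 7.46%.

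Some regions over genes of small nuclear RNAs (snRNAs) ranked high among the shared intergenic regions, and others did not. Their peaks had a median percentile of −log10 q of 94.5, 82.9 and 54.0 in clones 1, 2 and 3. Over all shared intergenic regions it was 50.5, 68.2 and 54.6, so clone 3 showed no higher rank. A shared region spans the peaks of several clones, so it can reach a gene that the peak of 1 of them does not cover. A peak was counted as covering a gene, or lying over it, if they shared 1 bp or more. Of the 939, 88 overlapped an annotated gene of another type than protein-coding or lncRNA, 9.37%, against 6.13% of regions of 1 clone. Spliceosomal snRNA genes lay in 8 shared regions, 7 of which all 3 clones listed, and in 3 regions of 1 clone. These were RNU1-1 and RNU1-2, which encode the U1 snRNA that pairs with 5′ splice sites, the U1 variant gene RNVU1-27, the U5 genes RNU5A-1, RNU5B-1, RNU5D-1 and RNU5E-1, whose snRNA contacts the exons in the spliceosome, and LOC124904138. By clone 1's own peaks, 8 of 873 shared regions covered an snRNA gene, against 1 of the 1249 intergenic regions that it alone listed. By clone 2's own peaks it was 1 of 923 against 2 of 5960, and by clone 3's own peaks 7 of 210 against 0 of 230. The counts of clone 2 are too small to compare its shares. Of 82 snRNA genes that lay between other genes, 9, 3 and 7 had a peak over the gene itself in clones 1, 2 and 3. In each control line it was 0, and no share over all genes was set beside these counts.

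The region of LOC124904138, annotated as an snRNA gene, had the smallest sum of ranks of the shared intergenic regions that all 3 clones listed. At chr17:43251572-43251919, 20303 bp from CCDC200, its peaks had 162, 200 and 141 reads over backgrounds of 46.2, 37.1 and 54.3 reads in clones 1, 2 and 3. Its folds of 3.45, 5.28 and 2.57 were ordinary, and its pile-ups were the highest of the regions over snRNA genes in each clone. RNU5E-1, at chr1:11908144-11908715, had pile-ups of 65, 50 and 38 reads and folds of 5.14, 5.06 and 2.73. Values given for a region are those of each clone's highest peak in it by −log10 q, which need not be the peak over the gene. The region of RNU5D-1, at chr1:44730534-44731502, had folds of 4.50, 3.95 and 4.64. Its highest peak in clone 3 stood at percentile 98.8 of that list. The highest peaks of clones 2 and 3, at 44730534-44730626 and 44730678-44730911, lay outside the gene at 44731069-44731170. RNU5A-1 and RNU5B-1, neighbours on chromosome 15, had folds of 5.57, 5.06 and 3.25 and of 5.11, 5.97 and 2.89. RNU1-1 had folds of 3.81, 4.19 and 2.63, and RNU1-2 had folds of 3.37, 3.11 and 2.32. RNVU1-27 was listed in clones 1 and 2 only, with 16 and 14 reads, the lowest pile-ups of the 8. No control line listed a peak in these regions. Copies of these genes are nearly identical in sequence, and how reads that match several copies were placed is not given in the sources used here, so the assignment to one copy is uncertain. A pile-up may also sum the reads of several copies, so the high pile-ups and the top rank of LOC124904138 may not be those of a single gene, which was not tested.

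Whether a peak reached these genes by 1 bp or more differed between clones. In clone 1 a peak covered the snRNA gene in 8 of 8 regions and in clone 3 in 7 of 7. In clone 2 a peak covered 1 of 8, and at the other 7 the nearest peak lay 23 to 231 bp beside the gene. Some overlaps were short. At RNU1-1 the highest peak of clone 3 ended at 16514122, the first base of the gene. At RNVU1-27 the highest peak of clone 1 began at 148522753, and the gene ends at 148522765. The median width of the highest peaks in these regions was 504.5, 150.5 and 234 bp in clones 1, 2 and 3. The clone with the narrowest peaks was thus the one with peaks mostly beside the gene.

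**Figure D3:**
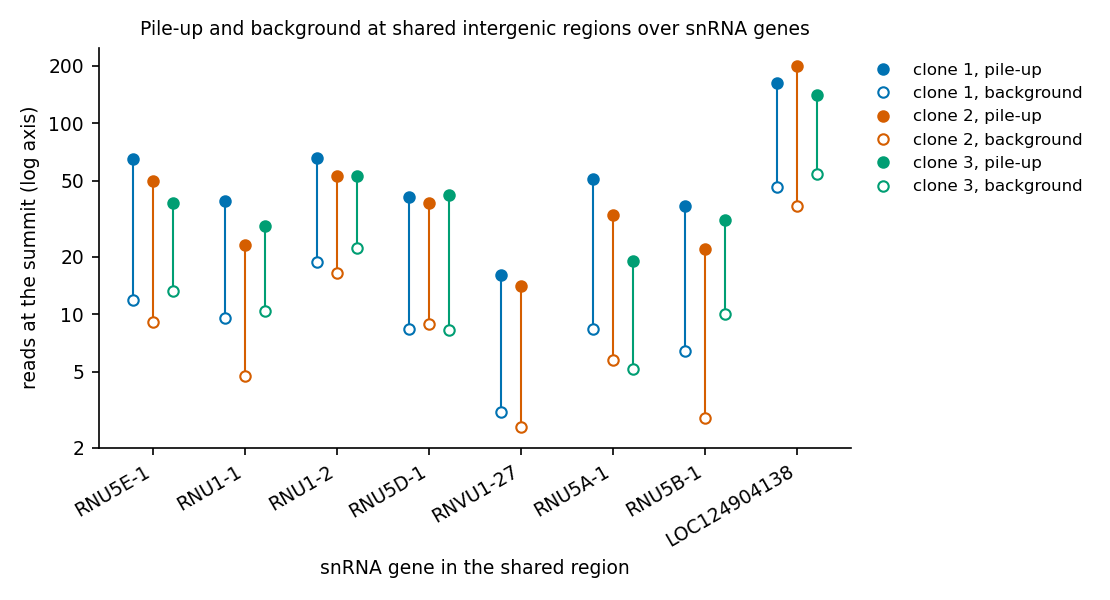
Reads piled up at the summit (filled points) and local background (open points) on a log axis, for the 8 shared intergenic regions over snRNA genes and each ΔNSPs clone that listed a peak. The region of LOC124904138 has 162, 200 and 141 reads in clones 1, 2 and 3, and RNVU1-27 has 16 and 14 reads in clones 1 and 2 and no peak in clone 3.

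Transfer RNA genes were found in 17 shared regions, which held 19 such genes, and 3 of the regions were listed by all 3 clones. Over all clones this was 1.81% of shared regions against 0.470% of regions of 1 clone, but the comparison depended on the clone. In clone 1, tRNA genes lay in 17 shared regions, 1.95%, and in 35 of the regions it alone listed, 2.80%, while clones 2 and 3 alone listed none. The tRNA genes were thus not more frequent in shared regions than in those of clone 1 alone. Of all 443 tRNA genes, 111, 37 and 11 had a peak over the gene in clones 1, 2 and 3, and 0 in each control line. The lists differ in length, and no share over all genes was set beside these counts. The 3 regions of all 3 clones held TRP-CGG1-1, TRQ-TTG1-1 and TRX-CAT1-8. At TRP-CGG1-1, a proline tRNA gene, the folds were 4.95, 5.06 and 3.70 in clones 1, 2 and 3. At TRQ-TTG1-1, a glutamine tRNA gene at chr17:49192259-49193091, they were 5.12, 5.23 and 2.69, with 49, 64 and 37 reads, but only clone 1's peak covered that gene, and those of clones 2 and 3 lay 198 and 143 bp beside it. Of the 19 genes, a peak of the clone in the region covered 19 in clone 1 and 13 in clone 2, by 1 bp or more. At the other 6 the nearest peak of clone 2 lay beside the gene. In clone 3 a peak covered 2 of 3. The highest fold of a region with a tRNA gene was 7.04, at the arginine gene TRR-CCG1-3 in clone 1, where clone 2 had 3.47 and clone 3 no peak.

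Transcribed pseudogenes lay in 37 shared regions, 3.94%, against 2.39% of regions of 1 clone, and 25 of the 37 lay within 1000 bp of an end of the pseudogene. SLC7A5P2, a pseudogene of an amino acid transporter gene, lay in a region at chr16:21520007-21520739 with folds of 6.10, 5.62 and 3.12 in clones 1, 2 and 3. Other pseudogenes lay in 22, and segments of immunoglobulin or T cell receptor loci in 2. SCARNA2, a small RNA of Cajal bodies, lay in 1, with low folds of 2.69 and 3.11 in clones 1 and 2.

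Genes of myeloid and haematopoietic transcription factors were often the nearest protein-coding gene to a shared intergenic region. Nearest genes were taken among protein-coding genes only, and at many regions of this list the end of an lncRNA gene was closer. Of 58 genes on that list, 18 were nearest to at least 1 shared region, 31.0%, against 4.01% of all 19974 protein-coding genes. These genes stand in long stretches without other protein-coding genes. The number of regions was therefore also set against the length of sequence nearest to each gene. The 31 shared regions nearest to the list came to 2.41 per Mb, against 0.532 per Mb over all protein-coding genes. Regions of 1 clone came to 4.58 per Mb near the list and 4.22 per Mb over all genes. Of all intergenic regions nearest to the list, 34.4% were shared by at least 2 clones, against 11.2% over all genes. Within clone 1 the list was nearest to 3.32% of the shared regions and 1.20% of those it alone listed, in clone 2 to 3.36% and 0.705%, and in clone 3 to 7.14% and 0.870%. The median local backgrounds of these regions were 7.90, 5.72 and 7.01 reads in clones 1, 2 and 3, against 7.02, 5.52 and 7.01 over all shared intergenic regions.

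All 3 clones listed 13 of the 31 regions, 41.9% (exact Clopper-Pearson 95% interval 24.5 to 60.9), against 13.6% of all shared intergenic regions. No control line listed any of the 31. CEBPB, which encodes a leucine zipper factor of monocytes and macrophages, had 4 such regions, 28881 to 156639 bp away on its 3′ side, and 3 of them were listed by all 3 clones. The farthest, at chr20:50349329-50349608, lay 1090 bp from an lncRNA gene and had folds of 4.20, 8.43 and 3.63 in clones 1, 2 and 3. The nearest, at chr20:50221571-50221730, was listed in clones 2 and 3 with folds of 8.31 and 4.79 and had no peak in clone 1. CEBPA, the C/EBP factor of granulocyte and monocyte precursors, had 1 region 6116 bp away, with folds of 4.84 and 3.42 in clones 1 and 2.

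RUNX3, of the family of runt domain factors, had 3 regions, each with the end of an lncRNA gene closer. The one at chr1:25022444-25023095, beside MIR4425, had 60, 67 and 43 reads and folds of 3.37, 3.87 and 3.24 in clones 1, 2 and 3, and was among the 12 with the smallest rank sums. The second, at chr1:25033843-25034215, had folds of 4.91, 6.40 and 3.93. The third was listed in clones 1 and 2 only. ETS2, an ETS domain factor, had 4 regions, 6573 to 154722 bp away, and 2 of them were listed by all 3 clones. The farthest of these, at chr21:38979677-38979913, had folds of 5.49, 4.90 and 3.90, and the closest, at chr21:38831528-38831932, had 3.38, 3.59 and 2.95.

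Regions of all 3 clones also lay nearest to ID1, an inhibitor of helix-loop-helix factors, to GATA2, a factor of blood progenitors, and to ZFP36L2, an RNA-binding zinc finger gene that the list also holds. ID1 had 2 within 6226 bp of the gene, with folds of 3.68, 4.77 and 2.98 in the nearer one, at chr20:31610608-31610997. The GATA2 region, 30352 bp away, had folds of 3.66, 4.12 and 3.35. IRF8, a factor of the monocyte lineage, had 2 regions, and FOS, a subunit of AP-1, had 1, all listed in clones 1 and 2 only. The FOS region had folds of 3.10 and 4.51, and the nearer IRF8 region had 4.16 and 4.22. A further 9 regions of the list lay nearest to IRF4, GFI1, ID2, ZEB2, IKZF1, ETS1, NFE2 and ZFP36L1, and clones 1 and 2 alone listed them. SPI1, the gene of PU.1, was on the list and was not nearest to any.

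The other lists had few regions, and the density of the transcription factor list was not particular to it. The azurophil granule list had 2.43 shared regions per Mb from 2 regions, and the cell cycle list 2.24 per Mb from 4. Regions of 1 clone were also dense near these lists, at 15.8 and 8.41 per Mb, and 13.3% and 21.1% of their intergenic regions were shared. Of 38 genes of monocyte and macrophage surface and effector proteins, 3 were nearest to a shared region, at 0.882 per Mb. These were ITGAM, the integrin CD11b, CD36, a scavenger receptor, and S100A10, none listed by all 3 clones. The CD36 region was weak, with −log10 q of 2.00 and 2.55 in clones 2 and 3, at percentiles 0.050 and 27.0. The ITGAM region stood at percentiles 83.0 and 9.28 in clones 2 and 3. The S100A10 region stood at 72.7 and 94.8 in clones 1 and 2. Of 20 genes of azurophil granules and neutrophil serine proteases, BPI and SRGN had 1 region each. The BPI region, near a gene that encodes a bactericidal granule protein, was at chr20:38298694-38299083 and had folds of 5.96, 5.06 and 4.45 and percentiles of 94.9, 82.6 and 96.3 in clones 1, 2 and 3. None of the 3 depleted genes was nearest to one. Of 30 inflammatory and NF-kB genes, CCL5, a chemokine, had 1 region, at 0.445 per Mb. Of 28 cell cycle genes, PIM1 had 2 regions and E2F1 and E2F2 had 1 each. Of 26 lymphoid, neuronal and liver genes, 0 were nearest to a shared region, while 17 regions of 1 clone lay nearest to them. With so few regions, the shares and densities of these lists have wide counting error.

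**Figure D4:**
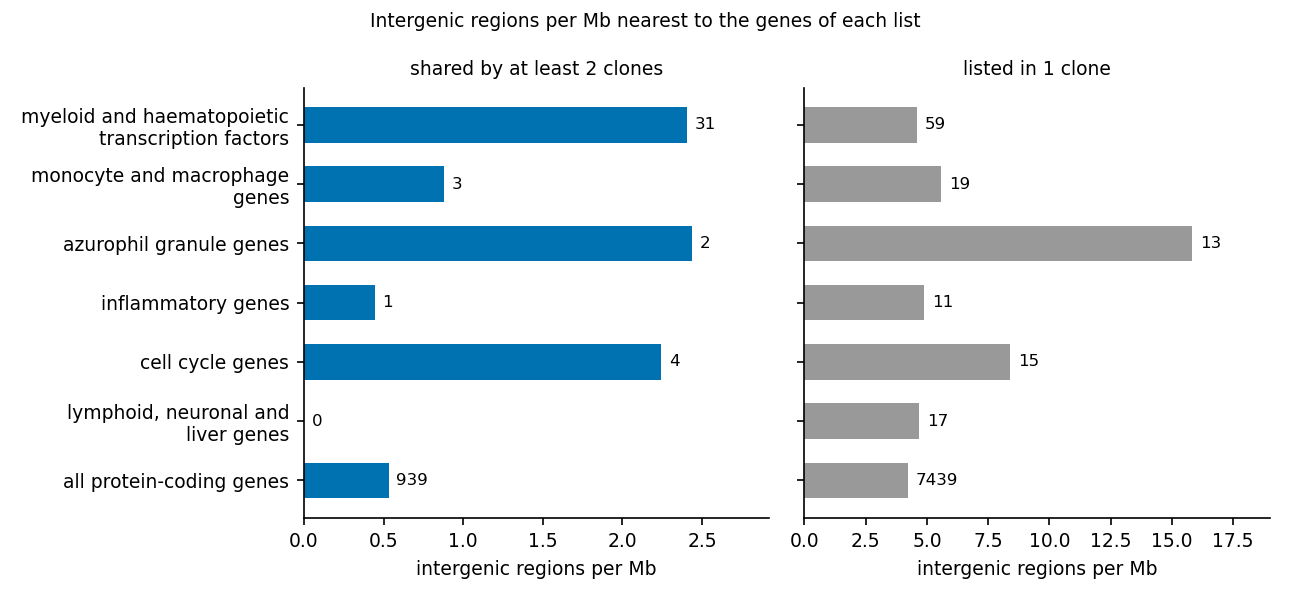
Intergenic regions per Mb (x axes) of the sequence nearest to the genes of each list, for regions shared by at least 2 clones on the left and regions listed in 1 clone on the right, with the number of regions beside each bar. The transcription factor list has 2.41 shared regions per Mb, the azurophil granule list 2.43 and the cell cycle list 2.24, against 0.532 over all protein-coding genes, while regions of 1 clone are at 4.58, 15.8, 8.41 and 4.22 per Mb.

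The protein-coding genes nearest to the most shared intergenic regions were neighbours on chromosome 15. Between 69468241 and 70526785, a stretch of 1059 kb, 19 of these regions were nearest to 3 neighbouring protein-coding genes. At most of the 19 the end of an lncRNA gene was closer. UACA, which encodes a coiled-coil protein, had 8, TLE3, a corepressor of the Groucho family, had 6, and RPLP1, a protein of the ribosomal stalk, had 5. Clones 1 and 2 listed a peak in all 19 and clone 3 in 4, and no control line listed one anywhere in the stretch. Folds had medians of 3.34 in clone 1, 5.64 in clone 2 and 3.00 in clone 3, so clone 2 was above its median of 4.12 over all shared intergenic regions and clone 1 was not. The highest fold of any shared intergenic region in clone 2, 11.99, was at chr15:70474807-70475314, 179240 bp from UACA, where clone 1 had 3.90 and clone 3 no peak. The TLE3 region at chr15:70258678-70259062, 160761 bp on the 5′ side of the gene, had 44, 47 and 36 reads in clones 1, 2 and 3, with folds of 3.72, 8.09 and 2.92. The local backgrounds over the stretch had medians of 5.85, 3.75 and 10.1 reads in clones 1, 2 and 3, against 7.02, 5.52 and 7.01 over all shared intergenic regions, so they were lower in clones 1 and 2 and higher in clone 3, which had 4 peaks there. Of 44 intergenic regions of any library in the stretch, 19 were shared, against 11.2% of all intergenic regions. Of 10 gene-body regions there 5 were shared, against 14.4% of all of them. Of 4 gene-end regions there 1 was shared, against 36.0% of all of them. The stretch was picked for its shared intergenic regions, so these counts are a description.

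**Figure D5:**
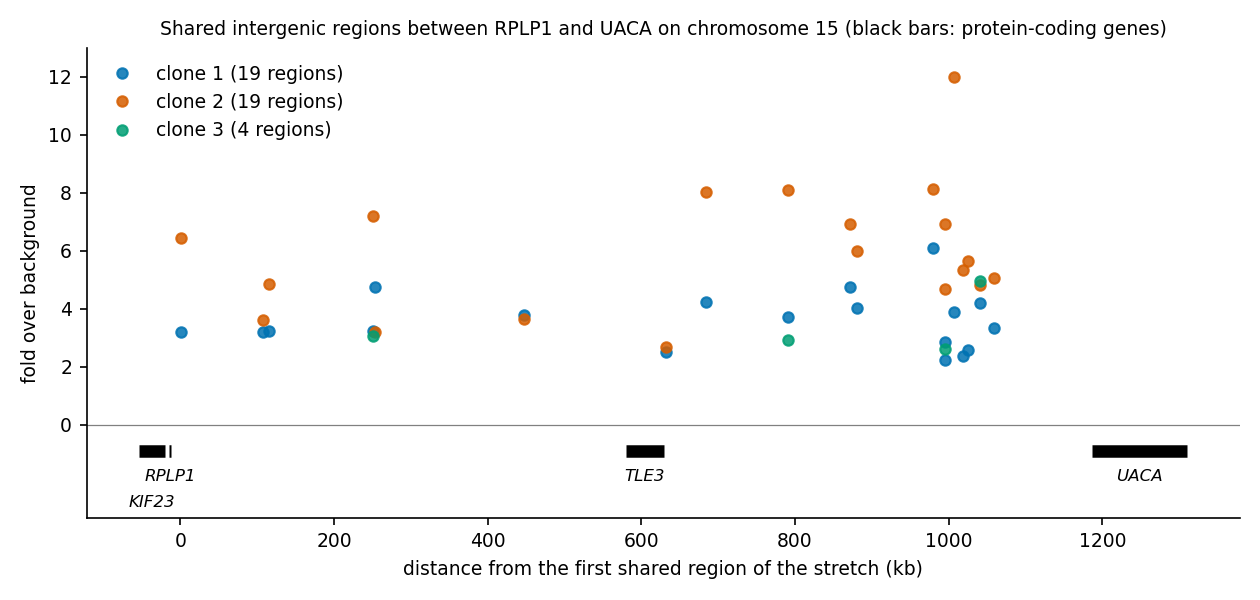
Fold over background (y axis) of the 19 shared intergenic regions between RPLP1 and UACA against distance from the first of them (x axis, kb), by clone, with protein-coding genes as black bars. Clone 2 reaches 11.99, clone 1 reaches 6.09, and clone 3 has a peak in 4 of the regions.

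Elsewhere the regions were mostly single. Joined where they lay within 10 kb of each other, 144 regions, 15.3%, fell into 69 groups, and 795 stood alone. Of the groups, 64 held 2 regions, 4 held 3 and 1 held 4. The group of 4 spanned 18.0 kb on chromosome 20, at chr20:4067718-4085681, between RNF24, a RING finger gene, and SMOX, which encodes spermine oxidase. Its folds were between 2.74 and 3.45 in clone 1 and between 3.00 and 4.49 in clone 2, and clone 3 listed 1 of the 4. RNF24 was the nearest gene to 4 regions in all, and the one at chr20:4038081-4038362 had 68 and 99 reads in clones 1 and 2 and no peak in clone 3. The 3 regions near CROCC, a centrosomal gene, spanned 9.66 kb on chromosome 1, included RNU1-2 and were all listed by 3 clones. Groups of 3 also lay near PHLDA3, RPN1 and CYP11A1.

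Apart from those with small RNA genes, the 12 regions of all 3 clones with the smallest rank sums lay near genes of varied function. Ranks were summed as they stand, so the long list of clone 2 weighed most. By the mean rank as a percent of each list, the BPI region, at 8.70%, stood ahead of the regions near METTL9, at 22.4%, and TLE3, at 16.7%, which are among the 12. The region near MMP28, a matrix metalloproteinase gene, at chr17:35801563-35801890, had folds of 6.87, 9.21 and 6.89 in clones 1, 2 and 3, at percentiles 96.7, 97.0 and 97.0 of their lists. Its reads were few, with 31, 30 and 22 at the summit over backgrounds of 3.66, 2.37 and 2.34. CLIC4, a chloride intracellular channel gene, had a region with folds of 4.97, 6.13 and 3.02, and RYBP, a Polycomb complex gene, one with 5.46, 5.06 and 3.71. Regions near DYNC1H1, the dynein heavy chain gene, ANKDD1A, and SMARCA4, the ATPase of a SWI/SNF complex, completed the 12. At SMARCA4, 12279 bp away, the folds were 4.33, 7.27 and 3.27.

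A single shared intergenic region had a control peak. At chr3:93470379-93470762, 402289 bp from PROS1, clones 1 and 3 had 1956 and 3582 reads over backgrounds of 1575 and 1912 reads, giving folds of 1.24 and 1.87. Control lines 1, 2 and 3 had 1723, 2793 and 2217 reads over backgrounds of 1495, 1304 and 1285, and folds of 1.15, 2.14 and 1.72. Clone 2 listed no peak there. These reads were solved from fold and p, and 3582 and 2793 lie above the highest simulated pile-up, 2500 reads. Reads and folds of the clones and the control lines overlapped, and the background was over 100 reads in no other shared intergenic region. The region farthest from any gene, 502023 bp, was at chr4:49710258-49711078, with folds of 3.20 and 4.08 in clones 1 and 3.

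At the distance limit, the 3 regions just inside lay 1004, 1007 and 1012 bp from a gene end. Their nearest protein-coding genes were CLSTN1, WNT10B and VPS52, and VPS52 itself lay 1748 bp away. The CLSTN1 region reached folds of 3.21 and 4.52 in clones 1 and 2, and the WNT10B region 4.83 and 3.04 in clones 2 and 3. Just outside the limit, shared regions lay 994 and 993 bp from the end of an lncRNA gene. Their nearest protein-coding genes were CDH26, 18846 bp away, and MYCBP2, 2097 bp away. The MYCBP2 region had folds of 3.24, 3.07 and 2.26, within the wide range of all shared intergenic regions.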

How the data were processed

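Peak lists of 6 ATAC-seq libraries of U937 cells, 1 list per library, were used. Per the submitters' processing notes, the tools were FastQC, Bowtie2, Picard and MACS2 and the build was GRCh38. No source states versions, settings, how reads that match several sites were placed, or any shift for the transposase. For each peak the authors deposited a fold over background (a ratio), −log10 values of p and q, and a score that follows the −log10 q, which was not used. Peaks were called per library, as the peak names in the deposited lists show. The lowest −log10 q was 2.00 in each clone, and 2.07, 2.04 and 2.02 in control lines 1, 2 and 3.

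Lines that share an interval were counted as 1 peak with its highest −log10 q, and 127 summit offsets below 0 in clone 2 were set to 0. Gene positions came from RefSeq, build GRCh38.p14, with 19974 protein-coding and 18177 lncRNA genes. Strand, and so the side of a gene, came from the table of gene starts. The pile-up n and background were solved from the fold, (n + 1)/(background + 1), and the p, a Poisson tail. Pile-ups were whole within 0.05 read for 100% of peaks. On simulated data, pile-ups of 1219 peaks with a background up to 100 reads were recovered for 100%, and of 2000 peaks with larger ones too for 97.15%. The sequence nearest to a gene was split at the middle of each gap between neighbouring protein-coding genes. Gaps include lncRNA genes, in which no region could lie, and unsequenced stretches.

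Median percentiles and widths were compared between positions with an exact sign-flip permutation test over the 3 clones, whose smallest two-sided p is 0.25. Separate clones are the replicates, and regions are not. Members and lists were chosen with earlier results of these data known. The regions named were set by rule: the 12 smallest rank sums among regions of all 3 clones, regions with a control peak, the 5 largest groups within 10 kb, up to 3 per other gene type and per gene list, the 3 farthest from any gene, the 3 on each side of the distance limit, and nearest genes with 4 or more regions. Other regions over snRNA or tRNA genes or near the transcription factor list were chosen after their values were seen. Some regions that this rule names are not reported here. All 200 list symbols matched. Groups came from the sample titles, and no batch is labelled, so batch and group cannot be told apart. Motifs in the regions were not searched, for want of a genome sequence. Python 3.11.15, numpy 2.4.6, scipy 1.17.1 and matplotlib 3.10.9 were used.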

Additional observations from a re-analysis of the deposited data

Results flagged for a closer look

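Peaks on sequences outside chromosomes 1 to 22 and X entered no comparison. On 7 of these sequences more than 1 clone listed a peak and no control line did. There were 6 peaks on 17_GL000205v2_random (1 in clone 1 and 5 in clone 2), 6 on Un_GL000195v1 (3 each in clones 1 and 2) and 5 on 1_KI270713v1_random (1, 3 and 1 in clones 1, 2 and 3). There were 2 peaks each on 14_KI270724v1_random, Un_GL000219v1 and Un_KI270744v1, 1 in clone 1 and 1 in clone 2, and 2 on 5_GL000208v1_random, 1 in clone 2 and 1 in clone 3. These sequences were not placed among genes, and the control lists were short, with 53, 26 and 14 lines in all.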

How the results depend on the processing

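The count of 939 shared intergenic regions fell to 289 at a −log10 q of 5 or more, to 128 with all 3 clones required and to 115 with equally long clone lists, and was 144 to 857 with a clone left out. In the same order of settings, regions over other gene types numbered 29, 18 and 15 (18 to 85 with a clone left out; 88 in the report), nearest protein-coding genes 267, 117 and 109 (133 to 736; 800 in the report), and regions over tRNA genes 9, 3 and 2 (2 to 17; 17 in the report). The share in all 3 clones was 7.61% under that q limit and 17.4% with equally long lists; it could not be computed with a clone left out or with all 3 required. Regions over snRNA genes numbered 6 to 10 under the alternatives run. The share of transcription factor genes nearest to a region, an alternative set added after the data were seen, as were those of snRNA and tRNA genes, was 13.8%, 12.1% and 8.62% in that order, against 1.34%, 0.586% and 0.546% of all protein-coding genes. With a clone left out it was 12.1% to 31.0%. The difference in percentile from gene bodies changed sign, to 0.564 under that q limit, 4.52 with all 3 clones required and 0.967 with equal lists, and was −3.34 to 3.94 with a clone left out. The difference in width from gene bodies changed sign, to 0.667 bp with a gene-end window of 2500 bp and 8.33 bp with all 3 clones required, and was −13.5 to 10.0 bp with a clone left out. The cause was not tested; fewer peaks enter the stricter settings. Differences from gene ends kept their sign under all alternatives run. Clones and control lines were not tested against each other, paired or unpaired, because the peak calls of the clones chose the regions. Position classes were compared with the clone as a replicate block; without it, the mean differences (−7.95 for the percentile against gene ends) are the same by construction, and the exact p of percentiles and widths was 0.2 and 0.6 against gene ends and 0.7 and 0.7 against gene bodies. Leaving out a control line changed none of these values. Counting every annotated gene type as a gene leaves no region over another type by construction. Read totals are not known, so peaks missing from clone 3 or a control line may lie under the limit of a shallow library; this was not tested.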
